A study of Mus musculus with 30 samples.

Results

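The subject is skin, set against the average of the remaining 14 tissues in a panel of 15 from adult mice. The sample labels assigned 2 of the 30 arrays to skin, and the remaining 28 arrays held 2 each for bladder, bone, brain cortex, cerebellum, eyes, fat, heart, kidney, large intestine, liver, lung, muscle, small intestine and stomach. All mice were C57BL/6 males, aged 28 weeks per the labels (the study's methods give another age), with no treatment named and no genetic change. The 2 arrays of a tissue came from different animals, except that the series description gives bone and fat a single replication, so the spread of those tissues may be technical. Each array was an Agilent oligonucleotide array with the tissue RNA in Cy3 and a reference RNA, a commercial mouse pool mixed with RNA of MC1 embryonic stem (ES) cells, in Cy5. Values below are log2(Cy3/Cy5), so that 0 means a signal equal to the reference, and a difference of 1 is a 2-fold change in that ratio. The dyes were not exchanged on any array.

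Skin is a layered organ. In the epidermis, keratinocytes leave a basal layer that is anchored to the basement membrane, switch to suprabasal keratins, and end as a cornified layer of cross-linked envelope proteins and extruded lipids that keeps water in. Beneath it lies a dermis of fibroblasts and collagen with hair follicles, sebaceous glands, nerves and vessels, and mouse skin also carries a thin sheet of skeletal muscle, the panniculus carnosus. Whole tissue was used here, and in such bulk samples fewer cells of a type cannot be told apart from less RNA per cell.

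Marker genes are set beside the tissue label as a description and not as a test, because the calls come from the same skin arrays. Of 16 epidermal markers, 6 had a probe with a symbol past the filter on dim probes, all 6 were well above background on both skin arrays, and 5 of them (Krt10, Pkp1, Abca12, Lce1a2 and Sprr1a) were called higher in skin. For Abca12 and Sprr1a the stomach mean exceeded the skin mean, so these markers do not separate skin from stomach. The melanocyte markers Pax3 and Mlph and the fat marker Inhbb had no call. Of the skeletal muscle markers all 7 were tested, and 4 were called but set aside because muscle was at least as high. The other epidermal markers, Krt5, Krt14, Lor and Flg among them, had no probe with a symbol past the filter and were not analysed here. Markers of hair follicle, dermis, leukocytes, mast cells and smooth muscle are given with their gene lists below.

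The 2 skin arrays correlated at r = 0.95 over the tested probes, and the median SD between them was 0.13, within the range of 0.07 (heart) to 0.34 (large intestine) of the 15 tissues. The median Cy3 signal was 115 and 107 on the skin arrays against a range of 85.7 to 175 over all arrays. Both skin arrays lay on the same slide, together with 1 muscle and 1 small intestine array. The 30 arrays filled 11 slides and were scanned on 5 days, and 10 arrays shared the scan day of skin. Bladder, kidney, heart, liver, lung, eyes, cerebellum and brain cortex shared neither a slide nor a scan day with skin or with the tissues linked to it, so that for these 8 tissues the tissue and the batch cannot be told apart. Values restricted to the slide or the scan day of skin are therefore given beside the results.

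Of 21025 probes tested, 760 (3.61%) were higher in skin than in the mean of the other 14 tissues, at an adjusted p under 0.05 in limma and a log2 difference of at least 2. Of these, 97 (0.461%) were at least as high in muscle and were set aside, which left 663 (3.15%). The kept probes differed by 2.00 to 10.43 on the log2 scale with a median of 2.89, whereas the median over all probes tested was -0.06. Only 180 probes (0.856%) were lower by the same thresholds, so that 80.9% of the calls were higher. That share was 66.5% with the scanner's processed signals and 69.0% with the values the authors deposited in their table, where more probes were called in both directions. The skin mean exceeded every other tissue mean for 414 of the 663 kept probes, 1 tissue reached or passed skin for 155, and 2 or more tissues did for 94. Stomach was the highest other tissue for 137 kept probes, followed by eyes for 78 and bladder for 74. Mouse stomach contains a keratinised squamous forestomach, and bladder is lined by urothelium, another stratified epithelium. Both skin arrays lay above all 28 other arrays for 300 of the kept probes and for 2.88% of all probes tested, a contrast that the choice of the kept probes by the same arrays fixes. A stricter description, with skin at least 2 above each single tissue on the log2 scale, was met by 79 probes.

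Values within the batches that contained skin are given as a description, because the same skin arrays chose the probes and these tissues are part of the mean, which largely fixes the direction. Against the muscle and small intestine arrays of the same slide, 661 of the 663 kept probes were higher in skin with a median difference of 3.30, and over all probes tested 10410 were. Against the 5 other tissues scanned on the same day, all 663 were higher with a median of 2.80. Near the line with muscle, 29 kept probes exceeded it by under 0.5 and 34 of the 97 set aside fell short by under 0.5. Setting aside also the probes less than 1 above muscle raised the number from 97 to 156. The smallest margin of a kept probe over muscle was 0.01.

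Only 78 of the 663 kept probes had a gene symbol in the probe lists used here, against 5049 of the 21025 probes tested, so the named genes sample a small share of the skin signal. The share with a symbol was uneven between the gene lists below. It was 12 of 15 names for clade B serpins, 13 of 81 for cornified layer genes and 5 of 54 for hair follicle genes. Which groups appear among the named genes therefore also depends on which genes had a symbol. The 3 probes with the largest differences among those tested in the value table had none. The first 30 of their 60 bases are shown, in lower case with no part marked, because these probes lead the comparison within the value table and have no gene symbol here.
Z00028697-1: aaatttgattgtttcctggttggggattca
Z00074466-1: ctggaagagcccctgtattgtccctatagg
Z00022762-1: gattcctacagtcctttattggaaagtggt
Probe Z00028697-1 measured 10.46 and 10.30 on the skin arrays, while the other 28 arrays lay between -0.47 and 1.72 with a median of -0.22. Its difference was 10.43 ± 0.17 (SE, adjusted p = 1.5e-18 in limma), and 8 of the 14 other tissues were not well above background. Both skin arrays stood far apart from all others for this probe. Probe Z00074466-1 measured 6.71 and 6.47 in skin against -3.50 to 5.04 elsewhere, and probe Z00022762-1 measured 7.06 and 6.86 against -0.93 to 5.97. For both the highest other tissue was stomach, and skin did not overlap with it.

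The named genes that stood highest in skin included many of the differentiating epidermis. Of the 13 tested probes in the list of cornified layer and keratinocyte differentiation genes, 10 were called higher, none was set aside or lower, and 3 were not called, beside 3.15% higher and 0.856% lower over all probes tested. The median difference of the list was 3.24, beside -0.06 for all probes tested. Fam25c (listed as 2200001I15Rik) had the largest difference of any named gene. It measured 5.59 and 5.28 in skin, against a lowest value of -4.08, a median of -2.96 and a highest of 4.31 on the other arrays, a difference of 6.65 ± 0.29 (SE, limma adjusted p = 3.1e-12). The skin arrays did not overlap with the others, of which bladder and stomach came nearest.

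Pkp1 encodes plakophilin 1, a plaque protein of desmosomes, the junctions that hold keratinocytes together. It measured 5.15 and 4.85 in skin and from -3.04 to 4.32 elsewhere with a median of -1.64, a difference of 5.29 ± 0.28 (limma adjusted p = 5.1e-11). Krt10, the suprabasal keratin that marks keratinocytes committed to differentiation, measured 5.54 and 5.34. The other arrays ranged from -0.98 to 4.66 around a median of 0.45, and the difference was 4.73 ± 0.15 (limma adjusted p = 1.2e-14). For Krt10 the 2 stomach arrays stood alone between skin and the remaining tissues. Lce1a2, a late cornified envelope protein, behaved alike, with 5.19 and 5.16 in skin, 4.75 as the stomach mean and a median of 0.39 over the other arrays (difference 4.39 ± 0.15, limma adjusted p = 4.8e-14). A second late envelope gene, Lce6a (listed as 2210420J11Rik), measured 3.46 and 3.45 against a highest other value of 3.13. Late envelope genes form a family of near-identical copies, and whether a probe also binds a relative was not tested.

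The list also held genes of barrier lipids. Nipal4 (listed as 9530066K23Rik), a membrane protein whose loss causes ichthyosis, measured 5.67 and 5.41 in skin and differed by 4.25 ± 0.31 (limma adjusted p = 4.9e-09), although bladder was as high at 5.59. Abca12, the lipid transporter of lamellar granules, measured 3.85 and 4.11 and differed by 3.39 ± 0.28, with stomach at 4.09. Ephx3 (listed as Abhd9), an epoxide hydrolase of the skin barrier, measured 3.41 and 3.19 and differed by 2.63 ± 0.18, again with stomach level at 3.28. Sprr1a, a small proline-rich envelope precursor, was only 1.57 and 2.13 in skin, below bladder at 3.25 and stomach at 3.0, although most other tissues were lower still (difference 2.66 ± 0.29). Neu2, a cytosolic sialidase, measured 4.66 and 5.28 with muscle as the next tissue at 4.14.

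The exceptions in this list were Blmh, Kprp and Elf3. Blmh, a protease that degrades filaggrin products, measured 1.36 and 1.37 and stood above all other arrays, but by 1.27 only, under the size required. The Kprp probe, for a keratinocyte proline-rich protein, gave 1.02 and 0.39, inside the range of -0.05 to 1.63 of the other arrays (adjusted p = 0.65). Elf3, an epithelial transcription factor, measured -1.32 and -1.20, and its difference was -1.49, with the highest means in large intestine (2.94) and stomach (2.20).

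The other leading named genes were of mixed kinds. Cysrt1 (listed as 2310002J15Rik), a cysteine-rich protein of the cornified layer, measured 5.82 and 5.49, overlapping with 2 other arrays, both of stomach (mean 5.61), and differed by 5.26 ± 0.18. Dst, which encodes the hemidesmosomal plakin dystonin among other isoforms, measured 5.33 and 4.98 against a highest other value of 3.42 (difference 4.13 ± 0.24, limma adjusted p = 1.6e-10). Tfap2b (listed as Tcfap2b), a transcription factor of the AP-2 family, measured 5.85 and 5.61, while eyes were at 5.54 and stomach at -0.38 (difference 4.27 ± 0.66). Wfdc21 (listed as 1100001G20Rik), a small protein with a WAP domain, measured 6.29 and 6.05 but was higher in liver at 7.33. Nccrp1 (listed as 1190020J12Rik) measured 5.08 and 4.73 with eyes at 4.76. Khdc1b was the least even of this group, at 5.07 and 1.67, though both skin arrays exceeded all others (highest 0.17). The transcripts 2310046K23Rik and 2310050C09Rik, which have no given name, measured 4.49 and 4.38, and 4.47 and 4.14. For them 13 and 12 of the other tissues were not well above background.

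**Figure D1:**
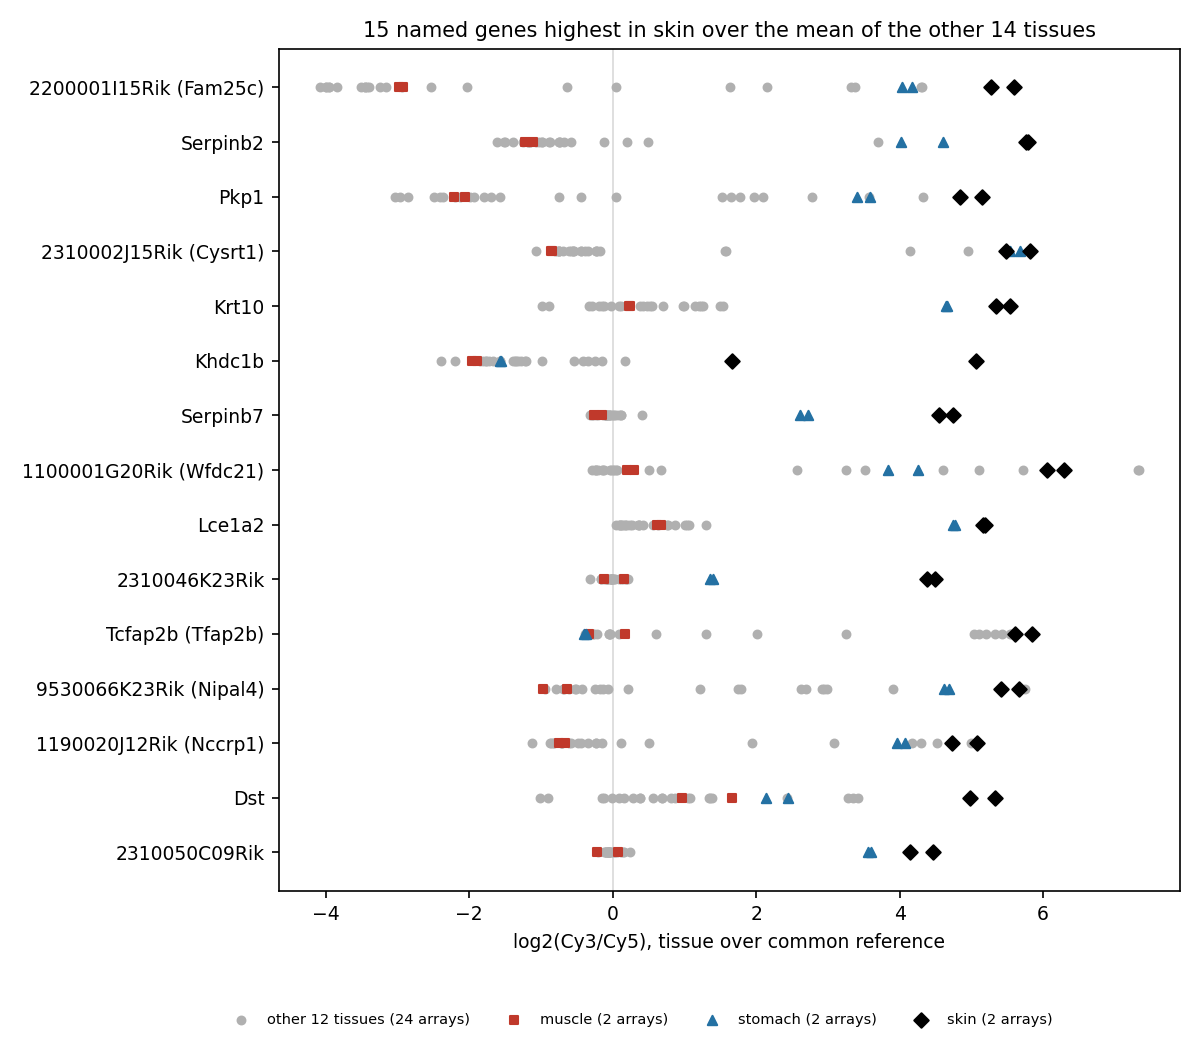
Values of the 15 named genes with the largest difference between skin and the mean of the other 14 tissues, 1 row per gene. The horizontal axis is log2(Cy3/Cy5), each point is 1 array, black diamonds are the 2 skin arrays, blue triangles stomach, red squares muscle and grey points the remaining 24 arrays. Skin lies to the right of most arrays in each row, stomach is near skin for Lce1a2 and Cysrt1, and the skin arrays of Khdc1b are apart, at 5.07 and 1.67.

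The sizes above depend on the channel. The Cy5 signal, which carries the same reference RNA on every array, was also raised at many bright spots. This was not particular to skin. Over probes with a raw Cy3 signal over 10000 and at least 4 above the median of the other arrays on the log2 scale, the median log2 difference in Cy5 was 3.43 in skin and 1.06 (brain cortex) to 3.44 (stomach) in the other tissues. At the Krt10 spot, the raw Cy5 signal was 14020 and 13280 on the skin arrays against a median of 1366 on the other arrays, beside raw Cy3 signals of 75720 and 76640 against 646.9. At the 2310050C09Rik spot Cy5 was 6384 and 5511 against 70.94. The Serpinb2 spot, in contrast, had 236 and 226.5 against 213.9. Of the 663 kept probes, 225 had a Cy5 signal in skin more than 2-fold over the median of the other arrays, which is 33.9% against 1.64% of all probes tested. With Cy3 alone, the difference of Krt10 was 6.90 instead of 4.73, that of Lce1a2 was 7.60 instead of 4.39, and that of 2310050C09Rik was 8.34 instead of 4.07. The part of this in the ratios was not tested, and for such probes the order by size differs between the scales.

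The clade B serpins, intracellular inhibitors of proteases, formed another group. Of the 11 tested probes of this family, 5 (Serpinb2, Serpinb7, Serpinb11, Serpinb5 and Serpinb12) were called higher and 6 were not called, beside 3.15% higher over all probes tested, with a median difference of 1.37. With the processed signals 9 were called, with median centring 3, without Serpinb5 and Serpinb12, and with a stricter filter on dim probes 2. These genes neighbour each other on chromosome 1. The 250 bases before the annotated start of the 5 called members are shown because these neighbours were high in skin together. They come from RefSeq on GRCm38.p6 and are written 5′ to 3′ on the strand of the gene. Capitals mark the motifs TGANTCA and TATAAA (the TATA box) on either strand. TGANTCA is a looser form of the AP-1 element, which Fos and Jun proteins bind and which has C or G in the middle. Among the called serpins shown, only Serpinb7 has C or G there, and the others have A or T.
Serpinb2, chr1:107511173-107511422, plus strand: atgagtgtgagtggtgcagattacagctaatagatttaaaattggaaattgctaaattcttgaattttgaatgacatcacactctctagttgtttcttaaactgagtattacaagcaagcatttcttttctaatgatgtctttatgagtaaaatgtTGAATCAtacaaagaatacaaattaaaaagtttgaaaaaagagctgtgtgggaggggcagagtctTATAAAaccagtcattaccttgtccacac
Serpinb5, chr1:106860925-106861174, plus strand: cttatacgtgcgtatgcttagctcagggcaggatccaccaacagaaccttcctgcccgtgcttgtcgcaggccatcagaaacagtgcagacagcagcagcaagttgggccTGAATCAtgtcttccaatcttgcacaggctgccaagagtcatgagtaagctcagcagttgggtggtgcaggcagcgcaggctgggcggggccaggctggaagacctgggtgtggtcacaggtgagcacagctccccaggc
Serpinb7, chr1:107422439-107422688, plus strand: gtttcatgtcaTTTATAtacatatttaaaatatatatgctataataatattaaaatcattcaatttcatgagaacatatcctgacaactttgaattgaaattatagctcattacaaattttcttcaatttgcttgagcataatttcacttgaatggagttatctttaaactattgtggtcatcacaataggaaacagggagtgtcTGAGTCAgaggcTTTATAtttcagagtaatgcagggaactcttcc
Serpinb11, chr1:107362064-107362313, plus strand: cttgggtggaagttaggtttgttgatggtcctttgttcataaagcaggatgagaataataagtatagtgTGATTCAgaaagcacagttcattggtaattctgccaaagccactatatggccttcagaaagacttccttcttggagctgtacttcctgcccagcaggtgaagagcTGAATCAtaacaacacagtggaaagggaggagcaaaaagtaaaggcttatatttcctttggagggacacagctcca
Serpinb12, chr1:106934199-106934448, plus strand: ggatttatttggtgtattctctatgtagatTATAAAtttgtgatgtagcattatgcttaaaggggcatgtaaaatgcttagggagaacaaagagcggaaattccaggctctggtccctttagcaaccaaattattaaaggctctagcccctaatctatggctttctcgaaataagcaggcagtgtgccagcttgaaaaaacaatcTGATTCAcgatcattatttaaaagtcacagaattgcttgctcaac
For Serpinb2 and Serpinb12 the table holds 2 starts, of which the first is shown. The 5 stretches shown hold TGANTCA, while the stretch before the second start of Serpinb12 does not, and Serpinb11 holds it 2 times. The motif TGANTCA is not particular to the called members. Of 10 tested family members with an entry, 7 had a match, including Serpinb8 and Serpinb10, which were not called, while Serpinb3a, Serpinb3b and Serpinb3c had none. Over all 32851 stretches of the same length 6.75% hold TGANTCA and 12.4% hold TATAAA. A match is a description of these letters and shows no binding. Fam25c and Sprr1a, from the list of cornified layer genes, are shown in the same way because each holds both motifs. They were picked for this and do not stand for the list. Krt10, Lce1a2, Lce6a, Abca12, Nipal4, Blmh and Elf3, from the same list, held no TGANTCA. Of these only Krt10 and Lce6a held TATAAA.
Fam25c, chr14:34355394-34355643, minus strand: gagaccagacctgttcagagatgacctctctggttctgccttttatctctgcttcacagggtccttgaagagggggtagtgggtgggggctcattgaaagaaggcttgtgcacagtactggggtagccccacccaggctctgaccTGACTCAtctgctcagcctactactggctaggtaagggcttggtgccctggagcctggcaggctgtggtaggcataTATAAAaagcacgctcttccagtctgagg
Sprr1a, chr3:92485882-92486131, minus strand: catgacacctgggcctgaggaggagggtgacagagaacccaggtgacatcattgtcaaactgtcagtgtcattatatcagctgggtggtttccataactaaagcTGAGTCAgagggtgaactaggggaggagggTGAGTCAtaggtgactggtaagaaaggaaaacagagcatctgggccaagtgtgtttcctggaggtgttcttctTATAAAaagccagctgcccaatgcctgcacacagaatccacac
By gene, TGANTCA was present before a start of 12 of the 55 named higher genes with an entry (21.8%), and of 220 of 3704 genes that were tested and not called (5.94%). TATAAA was present for 15 of the 55 (27.3%) and for 293 of the 3704 (7.91%). The neighbouring serpins account for part of the first count. TGANTCA was also present for 2 of 13 lower genes (15.4%) and 2 of 15 set aside for muscle (13.3%), and TATAAA for 1 of the 13 (7.69%) and for 5 of the 15 (33.3%). Of the other motifs searched, AACNGGTT (Grainyhead) was present for 0 of the 55 higher genes, 1 of the 13 lower (7.69%), 0 of the 15 set aside and 1.70% of those not called. GCCNNNGGC (AP-2) was present for 18.2%, 38.5%, 26.7% and 20.5% of the same groups. These shares are given without a test, and the stricter AP-1 form with C or G in the middle was not counted.

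Serpinb2, also named plasminogen activator inhibitor 2, measured 5.79 and 5.76 in skin against a lowest value of -1.62, a median of -0.99 and a highest of 4.61 on the other arrays. The difference was 6.16 ± 0.45 (limma adjusted p = 4.4e-09), with no overlap and stomach nearest at 4.32. Serpinb7, whose loss in humans causes a palmoplantar keratosis, measured 4.75 and 4.55 against a highest other value of 2.72 (difference 4.52 ± 0.11, limma adjusted p = 5.9e-16). For this probe 11 of the other tissues were not well above background. Serpinb5, the serpin maspin, measured 4.37 and 4.19 and did not overlap with the other arrays (highest 3.77). Serpinb11 measured 4.78 and 4.24, below eyes at 5.0 and level with stomach at 4.62. Serpinb12 measured 2.53 and 2.81, clearly below stomach at 4.61. The uncalled members Serpinb13, Serpinb3a and Serpinb3c were low in skin, at 0.88 and 1.90, 1.17 and 1.1, and 0.89 and 0.47, and far higher in stomach, at 5.30, 4.58 and 6.52. The 3 Serpinb3 genes are close copies, and their probes may not separate them.

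Stomach was the most frequent next tissue among the kept probes, although over all probes tested the skin mean correlated slightly more with bladder (r = 0.66) than with stomach (r = 0.62, both across probes, which are not independent replicates). Skin and stomach were compared directly in the same fit. At an adjusted p under 0.05 and a log2 difference of at least 1, 2056 probes (9.78%) were higher in skin and 2019 (9.60%) were higher in stomach. Of the 13 probes for cornified layer genes, 3 were higher in skin (Fam25c, Pkp1 and Neu2) and 2 were higher in stomach (Sprr1a and Elf3). Krt10 was higher in skin by 0.79 ± 0.20 (limma adjusted p = 0.0053), short of the size required. The differences were 0.42 ± 0.20 for Lce1a2 (adjusted p = 0.13), 0.04 ± 0.24 for Cysrt1 (adjusted p = 0.93) and -0.11 ± 0.39 for Abca12 (adjusted p = 0.88), all by limma. Of the 11 serpin probes, Serpinb7 alone was higher in skin (1.99 ± 0.16, limma adjusted p = 1.6e-08), and 4 were higher in stomach, with Serpinb3c the most extreme at -5.84 ± 0.14. Of the 27 probes for dermal matrix genes, 10 were higher in skin and 1 in stomach. Of the 21 skeletal muscle probes 17 were higher in skin, with a median difference of 3.20, and no probe was set aside for muscle in this comparison, so its counts include the muscle signal described below. This comparison uses the same skin arrays as that with the 14 tissues, so the lists are not independent.

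The lists for the basal layer and the hair follicle held few tested probes. For basal keratinocytes and their adhesion, 2 of 3 tested probes were higher, Dst and Lad1, where the share over all probes tested was 3.15%. Lad1, a protein of the basement membrane zone, measured 3.70 and 3.36 and was matched by large intestine at 3.84. Of 5 hair follicle probes only that of Wnt10a was called, against the same share. Wnt10a, a secreted signal required for hair and teeth, measured 1.5 and 1.16 against a highest other value of 0.20, and differed by 3.71 ± 0.21 (limma adjusted p = 9.2e-11). Wnt6 also lay above all other arrays, at 0.95 and 0.65, but differed by 1.86. The probe for the hair keratin-associated protein Krtap12-1 gave 1.40 and 0.79, of which the second lay within the other arrays (highest 1.24).

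In the dermal list, 5 of 27 probes were higher and none lower (3.15% and 0.856% of all probes), with a median difference of 0.88, and 19 of 27 were past the adjusted p alone in the upward direction (19.8% of all probes). Col3a1, a fibrillar collagen, measured 1.78 and 2.04 in skin, where 1 other array was higher at 2.19, and differed by 3.85 ± 0.45 (limma adjusted p = 2.0e-06). Aebp1, a collagen-binding matrix protein, measured 0.51 and 0.42 and differed by 2.24 ± 0.19, with bladder at 0.65. Dpt, dermatopontin, measured 3.80 and 3.69 above all other arrays, of which fat came nearest at 3.29 (difference 2.23 ± 0.39). Adamts2, which trims procollagens, measured 1.35 on both arrays (difference 2.06 ± 0.29). Igfbp5, a binding protein of insulin-like growth factors, measured 5.46 and 5.66, barely above muscle at 5.43. The fibroblast transcription factors Twist2 and Prrx1 were higher by 1.12 and 1.42 and were not called. With median centring 1 of these 27 probes was called, and with Cy3 alone 3.

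Among 18 probes for cytokines and their receptors, Il1r2 and Il1rl2 were called higher. Il1r2, the decoy receptor of interleukin 1, measured 4.96 and 4.75 against a highest other value of 3.30 (difference 3.82 ± 0.25, limma adjusted p = 1.4e-09). Il1rl2, the receptor of the interleukin 36 cytokines, measured 3.73 and 3.44 against a highest of 1.70 (difference 3.46 ± 0.20, limma adjusted p = 2.1e-10). Neither overlapped with another tissue. The signalling receptor Il1r1 differed by 1.23 and the list as a whole had a median of -0.05, close to that of all probes. The 33 leukocyte probes had no call in either direction and a median of -0.10. No probe of the melanocyte (3), fat cell (3), mast cell (1), smooth muscle (6) or sebaceous and surface lipid (18) lists was called either. At 3.15% higher and 0.856% lower over all probes, lists of this size may hold no call, so these counts say little about the groups.

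**Figure D2:**
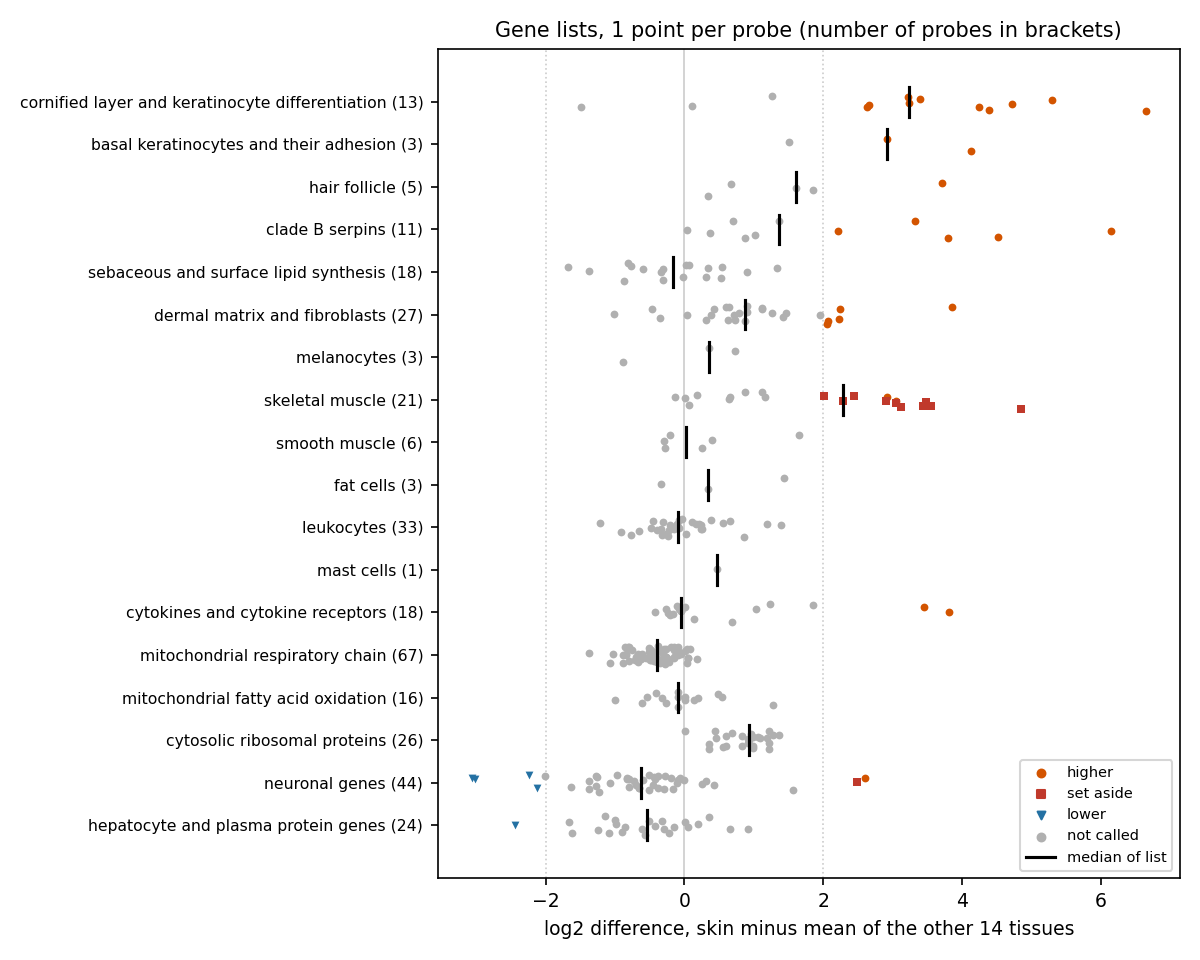
Log2 difference between skin and the mean of the other 14 tissues for the probes of 18 gene lists, 1 point per probe, with the number of probes after each name. Orange points are probes called higher and kept, red squares those set aside for muscle, blue triangles those called lower, grey points those not called, black bars the list medians and dotted lines the size threshold. Cornified layer genes have a median of 3.24 and respiratory chain genes one of -0.39.

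A clear muscle signal accompanied skin. Of 21 skeletal muscle probes, 10 were set aside, 2 more (Myl1 and Actn2) were called and kept because skin exceeded muscle, and 9 were not called. Over all probes tested 0.461% were set aside and 3.61% were called higher in all. Actn3, the actinin of fast fibres, measured 2.33 and 4.98 on the skin arrays and 4.90 in muscle. Mstn, the growth inhibitor myostatin, measured 2.92 and 6.61 against 7.60 in muscle. Cacna1s, the calcium channel of the transverse tubule, measured 3.49 and 4.13 against 4.39. Adssl1, the muscle adenylosuccinate synthase, measured 3.78 and 4.67 against 5.45, and Myoz3 (listed as 4833419K08Rik), a protein of the Z disc, measured 4.18 and 4.29 against 4.24. The transcript 5430431A17Rik, which has no given name, at 4.32 and 4.47 against 4.43, completed the 6 largest among the set-aside probes with a symbol. Neither it nor Myoz3 is in the list of 21 muscle probes, and some set-aside probes without a symbol differed by more.

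The amount of this signal differed between the 2 skin arrays. With 1 array per animal, the animal, the piece of skin taken and the array cannot be told apart. All 21 muscle probes were higher on skin replicate 2, by a median of 0.89, and the mean of the list was 1.98 on replicate 1 and 3.12 on replicate 2, beside 3.94 in muscle and values down to -0.57 (kidney) elsewhere. Of the 97 probes set aside, 92 were higher on replicate 2 with a median of 0.78. Of the 663 kept probes only 202 were, with a median of -0.22, and over all probes the median was -0.01. Without replicate 2, 68 probes were set aside and 7 muscle probes were called, against 115 and 13 without replicate 1. With slide as a fixed block, over the 6 tissues linked to skin by slides, 2 muscle probes were called. The kept genes Myl1 and Actn2, at 4.16 and 4.33 and at 4.78 and 4.79, lay above muscle at 3.63 and 4.21 although both are genes of muscle. Bone was slightly higher for Myl1, at 4.40, and heart for Actn2, at 4.88. Igfbp5, Neu2 and Dpt (3.74 as the skin mean against 3.19 in muscle) were also within 1 of muscle, and the part of muscle in these values was not tested.

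**Figure D3:**
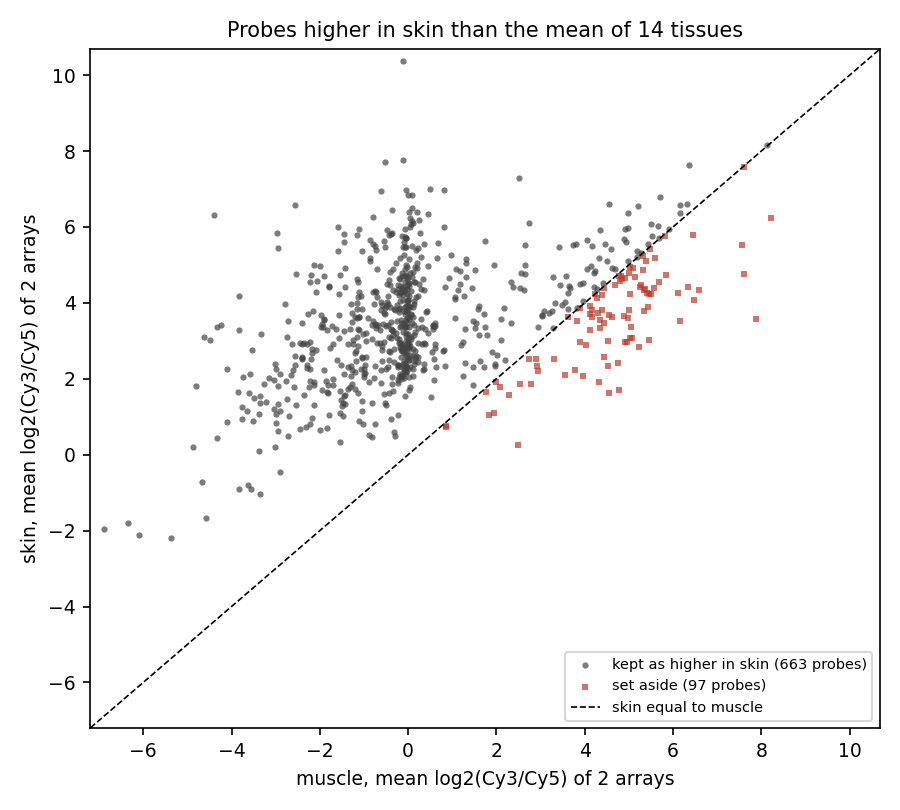
Mean log2(Cy3/Cy5) of 2 arrays in skin (vertical) against muscle (horizontal) for the 760 probes higher in skin than in the mean of the other 14 tissues. Grey points above the dashed line of equality are the 663 kept probes and red squares on or below it are the 97 set aside.

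**Figure D4:**
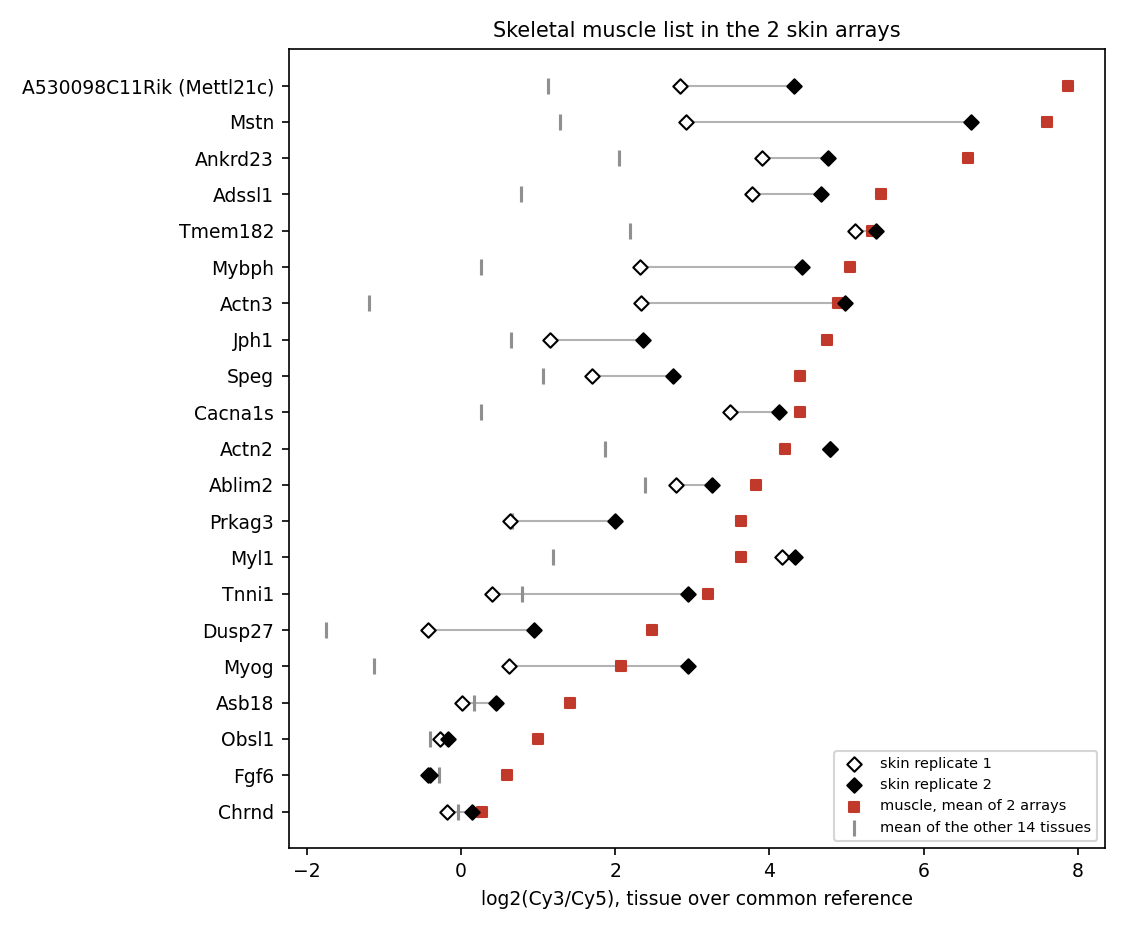
The 21 probes of the skeletal muscle list, 1 row per gene, ordered by the muscle mean. Open and filled diamonds are skin replicates 1 and 2 joined by a line, red squares the mean of the 2 muscle arrays and grey bars the mean of the other 14 tissues, all as log2(Cy3/Cy5). Replicate 2 lies to the right of replicate 1 for each gene, by little for Actn2 and Fgf6 and by 3.69 for Mstn.

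Housekeeping groups moved by less than the size required. Of 26 probes for cytosolic ribosomal proteins, 23 were higher in skin by the adjusted p alone, against 19.8% of all probes, with a median difference of 0.93. The value of the list was -0.44 and -0.69 on the skin arrays, near bladder at -0.46, while muscle was lowest at -2.23. With median centring of the arrays that median fell to 0.12, and with Cy3 alone it was 0.64. Of 67 probes for the mitochondrial respiratory chain, 30 were lower by the adjusted p alone, against 20.6% of all probes, with a median of -0.39. Here skin replicate 2 was higher for 64 of the 67. Without muscle, bone and heart in the mean the median was -0.14, and the part of muscle in these values was not tested. Of 16 probes for mitochondrial fatty acid oxidation none was called, with a median of -0.09.

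The number of probes lower in skin depended on the processing. Beside the 180 called, 618 were called with the processed signals, 528 with the values the authors deposited in their table, and 333 with scan day as a random block. With slide as a fixed block over 6 tissues 557 were called, and 59.5% of the calls were then higher. The mean of the same 6 tissues without the block gave 262 lower, and 73.3% of the calls were higher. The 180 probes differed by -2.0 to -4.51 with a median of -2.32, and 19 had a symbol. Skin had the lowest mean of all 15 tissues for 45 of them, and both skin arrays lay below all 28 other arrays for 24. Over all probes tested 167 (0.794%) had both skin arrays below all others, and nothing is read from the contrast, since the same arrays chose the 180. No probe was at least 2 below every single tissue. The highest tissue of these probes was most often liver (35), brain cortex (33), small intestine (31) or cerebellum (22). On both skin arrays 40 were not well above background. Within the slide of skin 177 of the 180 were lower, with a median of -1.98, and within the scan day all 180 were, with a median of -2.61, a direction that the choice of probes largely fixes here too.

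The lowest named gene was 0610040J01Rik, a transcript without a given name. It measured -2.01 and -1.45 in skin, whereas the other 28 arrays ranged from -0.93 to 5.37 with a median of 3.11. The difference was -4.51 ± 0.17 (limma adjusted p = 2.0e-13), and the same-slide and same-day differences were -5.96 and -5.39. Both skin arrays were above background for this probe and lay below every other array.

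Of 44 probes for neuronal genes, 4 were lower (Scg2, Abat, Resp18 and Dner), 1 was higher, 1 was set aside, and the median was -0.62, beside 0.856% lower and 3.15% higher over all probes tested. Scg2, the granule protein secretogranin 2, measured -0.15 and -0.25 in skin, not well above background, against 8.08 in eyes and a median of 0.32 (difference -3.07 ± 0.40, limma adjusted p = 7.3e-06). Abat, which breaks down the transmitter GABA, measured 1.00 and 1.02 against a median of 4.39 and a highest mean of 6.92 in liver (difference -3.02 ± 0.18, limma adjusted p = 1.9e-10). Muscle was lower than skin for Abat, at 0.07. Resp18, a protein of endocrine cells, measured 0.12 and -0.10 against 6.2 in cerebellum (difference -2.24 ± 0.16). Slc1a2 (listed as 2900019G14Rik), the glutamate transporter of astrocytes, measured -0.20 and -0.11 and was at background on both skin arrays, against 7.28 in brain cortex. The neuronal list also held Phyhip, higher in skin at 4.15 and 3.50, where cerebellum was at 3.69, and Rbfox1 (listed as A2bp1), a splicing factor of neurons and muscle, which was set aside at 5.67 and 6.80 against 8.22 in muscle.

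The remaining low genes had their highest values in different tissues. Gsta3, a glutathione transferase, measured -0.42 and -0.66 against 7.35 in liver (difference -2.45 ± 0.39, limma adjusted p = 7.5e-05), and it was the only one called among 24 probes for hepatocyte and plasma protein genes, where 0.856% of all probes were lower. Skin was above muscle for Gsta3, and the same-slide difference was 0.75, of opposite sign. Vil1, the microvillus protein villin, measured -0.95 and -0.90 below all other arrays, with small intestine at 5.46 (difference -2.32 ± 0.27). Dnajc22 (listed as 2810451A06Rik) measured -2.13 and -2.45 against 4.50 in liver. Cfap20dc (listed as 4930452B06Rik), related to a protein of cilia, measured -2.82 and -2.96 below all other arrays, of which the lowest was -2.73, so the skin values differed little from the lowest of them. The probes of Cfap20dc, Fam183b and Vil1 were not well above background on either skin array. Fam183b (listed as 3100002J23Rik) measured -2.79 and -2.95 against 4.45 in lung. Aifm3 and Dzank1 (listed as 6330439K17Rik) measured -1.01 and -0.87, and -0.73 and -0.76, both with cerebellum highest. In these genes skin lay beside several other tissues at the low end rather than apart from all.

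**Figure D5:**
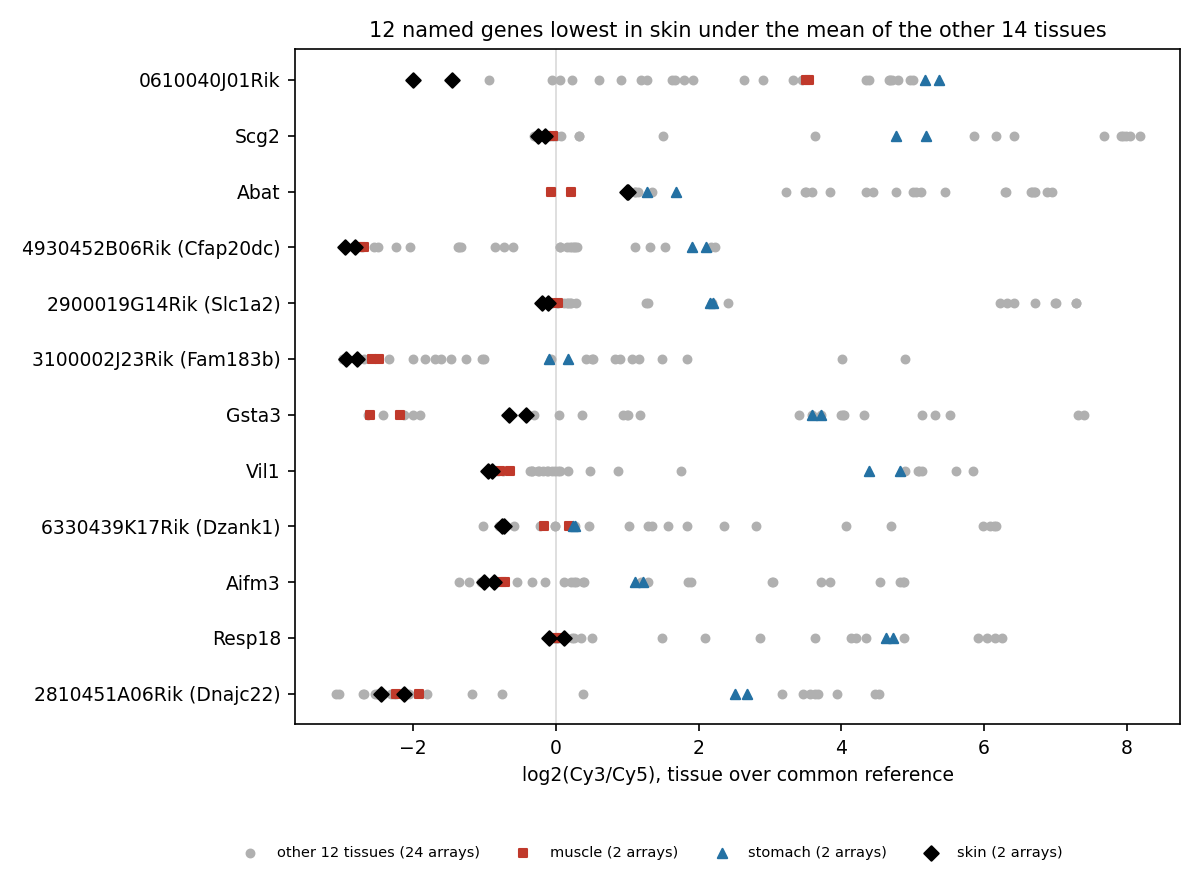
Values of the 12 named genes with the largest negative difference between skin and the mean of the other 14 tissues, drawn as in the plot of the highest genes. The skin arrays lie below all others for 0610040J01Rik, at background for Vil1 and Cfap20dc, and among other low arrays for Gsta3 and Dnajc22.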

How the data were processed

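The authors scanned 30 two-colour Agilent arrays and deposited the spot files of Feature Extraction 9.5.1.1 with red (Cy5) and green (Cy3) intensity values, and a value table for 25030 of the 42006 probes, whose log10 values are a Cy3 level that they adjusted for variation of the reference between arrays. Mean and background intensity from the deposited spot files were corrected by normexp (offset 50), normalized within arrays by loess with 4 iterations and expressed as log2(Cy3/Cy5). Per array, the deposited log10 values correlated with the Cy3 spot values at r of 0.98 to 0.99. Control spots were excluded, 475 outlier spots were left out, and no spot was saturated. Dim probes were removed by requiring the scanner's flag for signal over background on each array of any 1 tissue, and 21026 passed, of which 21025 could be estimated.

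A limma 3.58.1 fit (R 4.3.3) over all 15 tissues gave the skin mean minus the mean of the other 14 tissue means, and skin minus stomach, with Benjamini-Hochberg adjustment over all probes. The standard error covers the spread between arrays of a tissue and not the spread among the 14 tissues. Probes were called at an adjusted p of 0.05 and a log2 difference of 2 (1 against stomach), and were set aside where the muscle mean was at least as high. 

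Gene symbols came from probe lists supplied with the study and were updated through RefSeq names (3619 of 5971 current, 1866 as synonyms, 486 unmatched). The named genes were the 15 highest, 12 lowest and 6 largest set aside, the 3 highest probes without symbol, and the members of the gene lists. Members and lists were chosen with earlier results of these data known. The precision is limited by 2 arrays per tissue. Replicate numbers were checked for pairing: deviations of arrays with the same number correlated at -0.25 to 0.34 over 105 pairs of tissues (median 0.05), and none of the 14 pairs with skin exceeded 0.1, so the numbers were not used. The result for 1 list of genes is not reported here.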

Additional observations from a re-analysis of the deposited data

Results flagged for a closer look

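The value table holds 25030 of the 42006 probes, and a signal higher in skin was also present on probes outside it. Of 16976 such probes, 13622 passed the filter on dim probes, and 271 of these were called higher in skin and were not at least as high in muscle, while 38 were set aside and 41 were lower. Each of these is a smaller share than among the probes of the value table. There 3.15% were higher, 0.461% were set aside and 0.856% were lower. On the same arrays 1.20% of the spots of the negative controls, 153 per array, were called well above background in Cy3. The largest differences were those of probe Z00040994-1, at 8.33 and 8.20 on the skin arrays with a highest other value of 7.56, probe Z00047655-1, at 6.69 and 7.20 with a highest other value of 0.88, and probe Z00024666-1, at 6.80 and 6.53 with a highest other value of 4.44. None of the 3 had a gene symbol in the lists used here.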

How the results depend on the processing

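Among the named genes and list members whose calls were recomputed, no called difference changed sign under a fit listed here, and the cause of the changes in count below was not tested. The counts of probes higher, lower and set aside were 663, 180 and 97. With the scanner's processed signals they were 1047, 618 and 180, and with the values the authors deposited in their table they were 997, 528 and 178, so that the share of higher calls moved from 80.9% to 66.5% and 69.0%. Median centring left 352 higher and moved the median over all probes from -0.06 to -0.17. Requiring a log2 difference of 1 gave 1781 higher and 1300 lower, requiring the difference against each single tissue gave 79 and 0, and leaving muscle, bone and heart out of the mean gave 337 lower and 164 set aside. Setting aside probes within 1 of muscle removed 156. Beside 5 clade B serpin probes, 9 were called with the processed signals and 9 with the value table, 3 with median centring and 2 with a stricter filter, which tests fewer probes. Beside 5 dermal probes, 1 was called with median centring and 3 with Cy3 alone.

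Chosen after seeing the data were fits on the 6 tissues linked to skin by slides, which called 3 dermal probes and, with slide as a fixed block, gave 557 lower, 58 set aside and 2 muscle probes against 12, and a random scan day, which gave 333 lower. Slide or scan day as a fixed block over all 14 tissues was not run, because the slides and days form unlinked groups. A random slide gave 706 higher and 206 lower.

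Leaving out 1 array at a time gave 650 to 705 probes higher, 163 to 198 lower and 68 to 115 set aside. The comparison with stomach, run after seeing the data in these settings, gave 3308 (without stomach replicate 2) to 4263 calls in both directions. Called probes were 10 in each case for cornified layer genes, 5 for serpins, 4 to 6 for dermal genes and 7 (without skin replicate 2) to 13 for muscle genes. With the replicate number as a block, 663 probes were higher, 181 lower and 97 set aside, and the counts of the 4 gene lists tested did not change. Depth is not defined for arrays, and 40 of the lower probes were at background in skin.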

Other observations

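Among the 663 probes higher in skin, 36 differed by over 2 on the log2 scale between the 2 skin arrays, 32 of them higher on replicate 2 and 4 on replicate 1. The same counts over all probes tested are not given here, so these numbers do not set the kept probes apart. The genes below were chosen after their values were seen. Krtap1-5 (listed as 2310043L02Rik), a keratin-associated protein of the hair shaft, measured 0.18 and 4.10, with a highest other value of 0.02. The transcript 4733401I12Rik measured 0.29 and 6.11, A030014E15Rik measured 0.13 and 5.45, 5430421N21Rik measured -0.21 and 4.17, and 4930515B02Rik measured 0.62 and 3.91. In each of these 5 genes the signal stood far out on replicate 2 alone, although replicate 1 of Krtap1-5 also lay slightly above all other arrays. Pinlyp (listed as 2310033E01Rik) measured 3.19 and 5.22. The only named gene with the opposite order was Khdc1b, at 5.07 and 1.67. The cause of these differences was not tested.

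The rise of the Cy5 signal in skin was larger at bright Cy3 spots than at dimmer ones. For the 147 kept probes with a mean skin Cy3 signal over 10000 the median log2 difference in Cy5 between skin and the median of the other arrays was 1.90, and for the 516 others it was 0.41, beside 0.07 for all probes tested. Its cause was not tested.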
